A study of Homo sapiens with 12 samples.

Results

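The nuclear genes for subunits of oxidative phosphorylation were compared between TGFbeta1 and control libraries of MCF-12A, a human breast epithelial cell line that is established and not of tumour origin. Members were taken by symbol: all listed genes that begin with NDUFA, NDUFB, NDUFC, NDUFS, NDUFV, SDHA to SDHD, UQCR, COX4 to COX8 or ATP5, without NDUFA4L2 and without the assembly factors NDUFAF and SDHAF. This gave 82 of 13588 genes, of which 39 belong by name to complex I, 4 to complex II, 9 to complex III, 12 to complex IV and 18 to complex V. RNA-seq was carried out on 6 libraries of cells given TGFbeta1 and 6 of cells given vehicle, and the labels name no genetic change in either group. Dose, duration and whether replicates were separate cultures are not given in the labels, so that p-values rest on the spread between these libraries alone, and that spread may be technical. The values were deposited as 2 separately normalised tables, of which the first holds replicates 1 to 3 of both groups (the first set) and the other replicates 4 to 6 (the second set). In total 81 members were in both sets, and NDUFC2-KCTD14, a read-through of NDUFC2 and its neighbour, was in the first set alone.

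Oxidative phosphorylation takes place in the inner mitochondrial membrane. Complexes I and II pass electrons from NADH and succinate to ubiquinone, complex III passes them on to cytochrome c, and complex IV passes them to oxygen, while complexes I, III and IV pump protons that drive ATP synthesis by complex V. Most subunits are made from nuclear genes and imported, and a small core of complexes I, III, IV and V is encoded in mitochondrial DNA, so these complexes need both genomes. TGFbeta1, a cytokine that cells secrete, is known to turn cultured epithelial cells towards a mesenchymal state.

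Expression was measured in FPKM, which is fragments scaled to the length of the transcript and to the mapped fragments of the library, and transcripts were summed per gene. Summed over all listed transcripts, FPKM came to between 291801.6 and 293787.5 per TGFbeta1 library and between 307852.2 and 318269.5 per control library in the first set. Sums of the second set were between 343461.2 and 358432.6 for TGFbeta1 and between 338968.0 and 353706.5 for control. Depth is unknown, since the files give no counts. A known target of TGFbeta signalling, SMAD7, had 4.87, 3.71 and 4.47 FPKM in TGFbeta1 libraries of the first set, against 0.999, 1.31 and 1.34 FPKM in control. SMAD7 of the second set had 1.09, 0.748 and 0.894 FPKM in the libraries labelled TGFbeta1, against 1.2, 1.15 and 1.02 FPKM in control. FN1 and ITGB6, which TGFbeta1 also induces in epithelial cells, were likewise higher with TGFbeta1 in the first set, but were not called in the other. The TGFbeta1 libraries of the second set are therefore written below as the libraries labelled TGFbeta1. All 8 mammary epithelial markers examined were measured, with summed FPKM of 1904 to 2208 in TGFbeta1 libraries and 2500 to 3237 in control libraries of the first set. In that set 3 of these 8 were lower (37.5%, limma, adjusted p under 0.05), where 11.9% of all tested genes were called lower. The 2 listed of 7 fibroblast markers, COL1A1 and DCN, summed to between 13.7 and 16.9 FPKM in TGFbeta1 and between 1.56 and 1.84 FPKM in control libraries of the first set, with the other 5 not listed and both called higher. The 3 of the 7 that the second set lists summed to between 12 and 15.7 FPKM in the libraries labelled TGFbeta1 and between 28.6 and 32.6 FPKM in control, and the 1 of them tested there, DCN, was called lower. Listed leukocyte, endothelial, erythroid and adipocyte markers summed to 4.13 FPKM or less in every library. The 1 listed leukocyte marker, CSF1R, was called higher in the first set, at 3.37 to 4.13 FPKM in TGFbeta1 and 1.23 to 1.498 FPKM in control. Of all tested genes 9% were called higher in the first set, and 0.151% were called lower in the second. The part of these marker levels in the results below was not tested. Fewer cells of a type and less RNA per cell cannot be told apart in such bulk samples.

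The members were well expressed. Over the control libraries of the first set their mean levels had a median of 73.5 FPKM, with 29 of 82 above 100 FPKM and 8 under 10 FPKM. The highest control mean there was that of ATP5B, the catalytic beta subunit of ATP synthase, at 441.2 FPKM, followed among the other complexes by COX6A1 (345.6 FPKM), UQCRH (288.0 FPKM), NDUFS5 (230.5 FPKM) and SDHB (134.5 FPKM). UQCRH had the highest control mean of the second set, 383.3 FPKM. With a minimum mean of 1 FPKM, 80 members of the first set were tested, and 81 of the second. The 2 members under the minimum in the first set were ATP5S and NDUFC2-KCTD14. ATP5S, whose product is a coupling factor related to ATP synthase, had 0.823, 0.473 and 0 FPKM in TGFbeta1 libraries, against 0.0324, 0.0880 and 0.141 FPKM in control libraries. NDUFC2-KCTD14 was listed at 0 in all TGFbeta1 libraries and had 0.0910, 0 and 0.237 FPKM in control libraries.

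In the first set, 11 members fell with TGFbeta1 and none rose. They were NDUFA6, NDUFAB1, NDUFB10, NDUFB8, NDUFS8 and NDUFV1 of complex I, SDHB and SDHD of complex II, UQCRC1 and UQCRFS1 of complex III, and ATP5F1 of complex V. They fell by between 13.0% (NDUFB8) and 33.5% (NDUFS8). The test was limma on log2(FPKM + 1) with Benjamini-Hochberg adjustment over all tested genes, two-sided, with an adjusted p under 0.05 as the threshold for a call. The log2(FPKM + 1) scale understates the change of low genes. The 11 members are 13.75% of the 80 tested, and 11.9% of all 10454 tested genes were called lower, so the share of members is close to the background. In either direction 20.9% of all genes were called. No member was called higher, against 9% of all genes. Without adjustment, 22 members had p under 0.05, all of them lower, while 35% of all genes passed in either direction. The log2 change was below 0 in 57 of 80 members (71.25%), against 56.4% of all genes, and the median change was -0.12 for members and -0.05 for all genes. Members whose TGFbeta1 and control libraries did not overlap numbered 26 with lower and 2 with higher values, against 25.1% and 18.2% of all genes.

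The count of calls depended on how libraries were scaled. With libraries scaled by the median of ratios, to an equal sum or by quantiles, 6, 4 and 5 members were called lower and none higher. Over all genes the deposited scale gave 941 higher and 1245 lower calls. The 3 other scalings gave 1080 and 964, 1164 and 855, and 1036 and 972. The median change of members lay below that of all genes by 0.07 on the log2 scale as deposited, and by 0.06, 0.06 and 0.04 under the other scalings. NDUFB10, NDUFS8, NDUFV1 and ATP5F1 were called under each of these 4 scalings. Leaving out TGFbeta1 replicate 1, 2 or 3 left 4, 4 and 7 member calls, and leaving out control replicate 1, 2 or 3 left 5, 7 and 6.

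**Figure D1:**
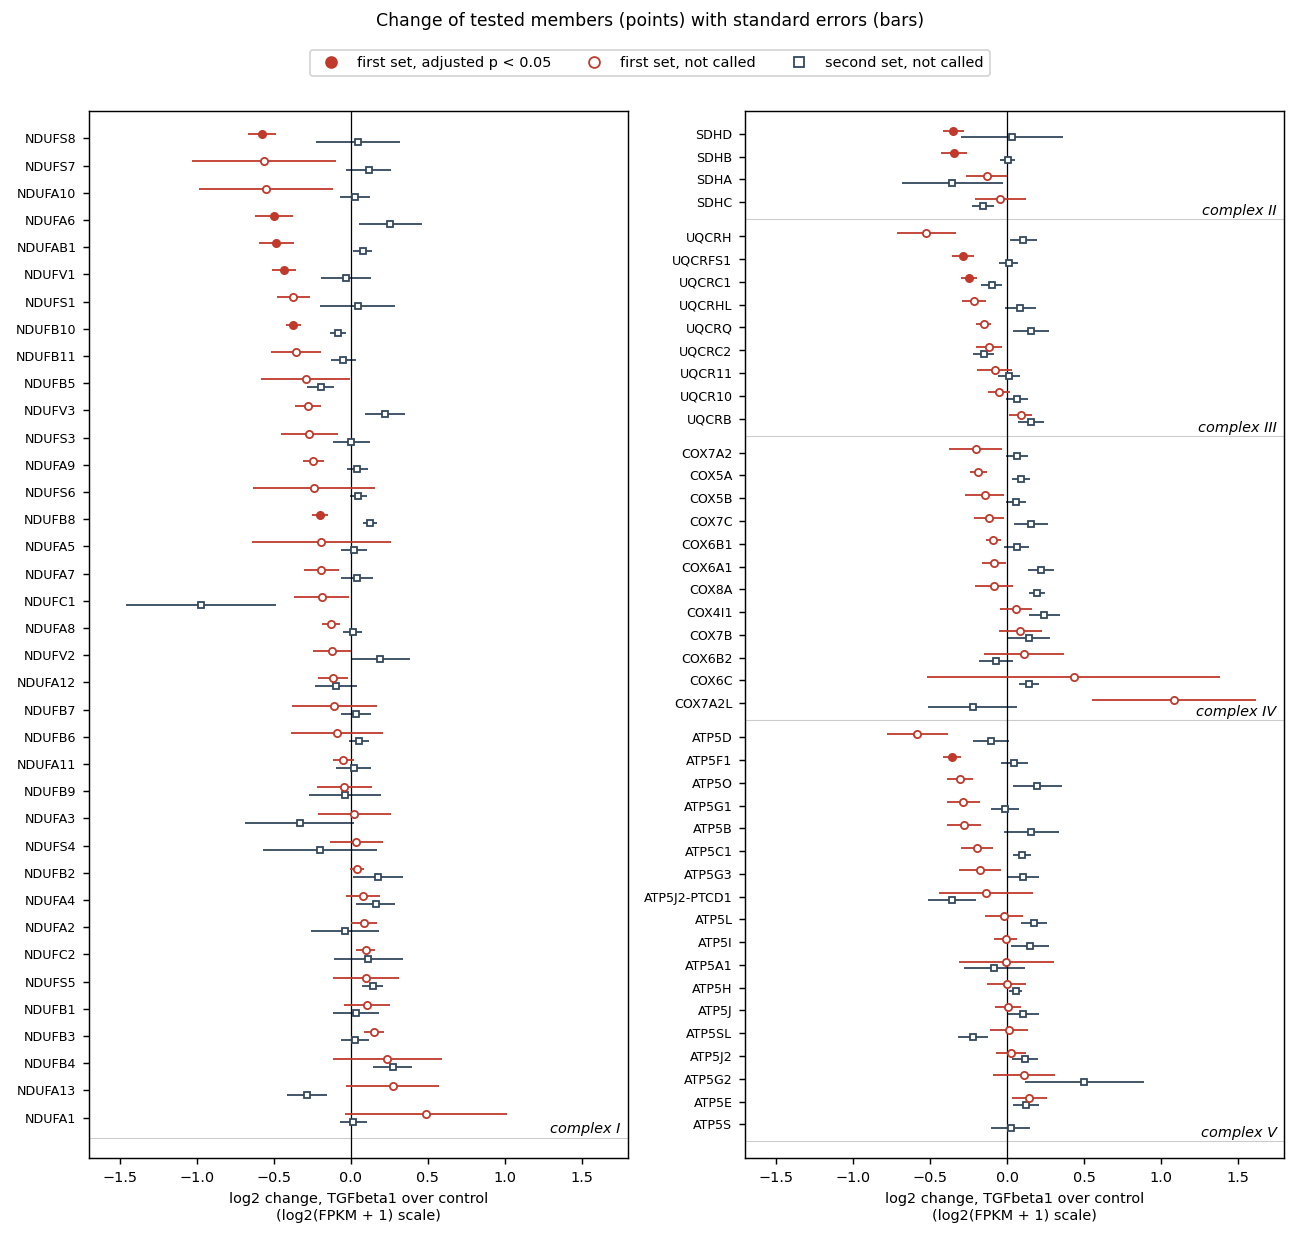
Log2 change of the tested members, 1 left out, TGFbeta1 over control, on the log2(FPKM + 1) scale (points) with standard errors (bars), by complex. Circles are the first set, filled where the adjusted p was under 0.05, and squares are the second set. The 11 filled circles all lie left of 0, and no square is filled.

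Promoter sequence is shown for the called members that best display which recognition motifs of mitochondrial gene regulators occur there. Of the 82 members, 67 matched the RefSeq promoter table by symbol (GRCh38.p14, 250 bases before and 50 after the annotated start), including all 11 that fell. These coordinates are of another build than the hg19 used for expression. The sequences below are the 250 bases before the start, 5′ to 3′ on the strand of the gene, with matches to the NRF1 motif (GCGCA, any base, GCGC) and the ETS motif CCGGAAG, on either strand, in capitals. SDHD (chr11:112086623-112086872, plus strand) holds both motifs, SDHB (chr1:17054033-17054282, minus strand) the ETS motif, UQCRC1 (chr3:48609647-48609896, minus strand) and UQCRFS1 (chr19:29213152-29213401, minus strand) the NRF1 motif, and NDUFB10 (chr16:1959288-1959537, plus strand) neither.
SDHD: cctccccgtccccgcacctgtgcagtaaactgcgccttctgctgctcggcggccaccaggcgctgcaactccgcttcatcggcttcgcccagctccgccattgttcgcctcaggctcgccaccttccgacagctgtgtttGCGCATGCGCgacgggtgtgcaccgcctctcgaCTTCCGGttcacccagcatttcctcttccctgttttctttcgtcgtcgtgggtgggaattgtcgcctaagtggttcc
SDHB: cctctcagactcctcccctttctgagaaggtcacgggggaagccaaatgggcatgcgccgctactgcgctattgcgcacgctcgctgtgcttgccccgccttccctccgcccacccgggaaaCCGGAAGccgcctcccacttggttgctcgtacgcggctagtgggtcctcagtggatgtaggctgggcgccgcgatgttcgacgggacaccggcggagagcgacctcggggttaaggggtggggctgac
UQCRC1: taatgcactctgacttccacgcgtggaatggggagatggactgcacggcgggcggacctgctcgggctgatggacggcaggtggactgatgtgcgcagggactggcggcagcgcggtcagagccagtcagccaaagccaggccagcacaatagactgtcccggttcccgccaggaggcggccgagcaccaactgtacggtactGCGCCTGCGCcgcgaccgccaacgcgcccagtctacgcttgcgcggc
UQCRFS1: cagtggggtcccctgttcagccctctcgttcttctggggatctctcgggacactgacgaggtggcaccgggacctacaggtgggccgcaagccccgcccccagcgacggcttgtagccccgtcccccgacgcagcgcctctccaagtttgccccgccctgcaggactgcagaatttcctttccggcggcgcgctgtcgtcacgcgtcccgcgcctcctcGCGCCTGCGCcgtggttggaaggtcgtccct
NDUFB10: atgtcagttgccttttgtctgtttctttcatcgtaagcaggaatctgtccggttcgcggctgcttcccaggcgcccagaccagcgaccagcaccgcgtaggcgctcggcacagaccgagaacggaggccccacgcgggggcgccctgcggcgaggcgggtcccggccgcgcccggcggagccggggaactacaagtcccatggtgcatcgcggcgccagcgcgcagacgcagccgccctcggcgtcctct

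The NRF1 match began 110 bases before the start in SDHD, 47 in UQCRC1 and 31 in UQCRFS1. In UQCRC1 and UQCRFS1 it lies on the other strand. The ETS match began 128 bases before the start in SDHB and 77 in SDHD, where it lies on the other strand. Over the 300 bases, the NRF1 motif was in 15 of 67 member promoters (22.4%), including 3 of the 11 that fell, and in 8.57% of 15842 protein-coding promoters of the table. The ETS motif was in 19 of 67 (28.4%), including 2 of the 11, and in 14.2% of protein-coding promoters. The YY1 motif AAGATGGC was in 11 of 67 (16.4%), including 4 of the 11, and in 3.91% of protein-coding promoters. The 4 were ATP5F1, where it begins 2 bases before the start on the other strand, and SDHB, UQCRC1 and NDUFA6, where it begins 11, 24 and 26 bases after it. No matches of 2 motifs overlapped in the promoters of these 11 genes, and a match is a description of the letters only. NDUFS8, NDUFV1, NDUFAB1, NDUFB8 and NDUFB10 had none of the 3 motifs in this window.

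Complex I, the NADH dehydrogenase, contributed 6 of the 11 calls, from 38 tested members (15.8%, where 11.9% of all genes were called lower). NDUFV1 encodes the flavoprotein subunit that binds NADH, and NDUFS8 an iron-sulfur subunit on the path of electrons to ubiquinone. NDUFV1 (hg19 chr11:67374323-67380006, plus strand, over its listed transcripts) had 58.2, 67.7 and 65.2 FPKM in TGFbeta1 libraries, against 88.6, 86.9 and 83.6 FPKM in control libraries. NDUFS8 (chr11:67798094-67804111, plus strand) had 50.2, 49.5 and 45.3 FPKM in TGFbeta1, against 73.1, 79.2 and 65.7 FPKM in control. For both genes every TGFbeta1 library lay below every control library. The log2 change was -0.44 ± 0.08 (SE, adjusted p = 0.0140) for NDUFV1 and -0.58 ± 0.09 (SE, adjusted p = 0.00974) for NDUFS8, by limma. NDUFV1 lost its call without control replicate 1 (adjusted p = 0.0523).

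NDUFB10 and NDUFB8 encode accessory subunits of the membrane arm. NDUFB10 (chr16:2009509-2011976, plus strand) had 94.9, 91.7 and 93.8 FPKM in TGFbeta1, against 121.9, 122.7 and 119.6 FPKM in control. NDUFB8 (chr10:102283497-102289757, minus strand) had 144.4, 143.6 and 139.5 FPKM in TGFbeta1, against 159.5, 167.4 and 164.6 FPKM in control. The libraries of a group lay close together for both genes, and the groups did not overlap. NDUFB10 fell by 0.37 on the log2 scale (adjusted p = 0.00554), the smallest adjusted p of all members. NDUFB8 fell by 0.20 (adjusted p = 0.0432), and this call was lost in each of the 6 fits that left out 1 library (adjusted p 0.0589 to 0.114).

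NDUFAB1 is the mitochondrial acyl carrier protein, and NDUFA6 is an accessory subunit that binds it. NDUFAB1 (chr16:23592323-23607677, minus strand) had 79.2, 75.9 and 78.7 FPKM in TGFbeta1, against 92.9, 114.6 and 123.0 FPKM in control. NDUFA6 (chr22:42481529-42486959, minus strand) had 23.1, 23.6 and 22.4 FPKM in TGFbeta1, against 33.6, 27.7 and 38.4 FPKM in control. The TGFbeta1 libraries were close together and the control libraries spread more widely, without overlap between the groups. The changes were -0.48 ± 0.11 (SE, adjusted p = 0.0348) for NDUFAB1 and -0.50 ± 0.12 (SE, adjusted p = 0.0419) for NDUFA6 in limma's test. Each was called in 1 of the 6 fits that left out a library. For NDUFA6 the transcript with the highest level alone, NDUFA6-003, had a log2 change of 0.02 (adjusted p = 0.987). The sum over its transcripts fell while that transcript had 7.43, 7.29 and 20.7 FPKM in TGFbeta1 and 12.2, 8.33 and 10.9 FPKM in control.

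The other 32 tested members of complex I were not called, and the complex had a median log2 change of -0.14. Among the core subunits that carry electrons, NDUFS1 had 7.62, 6.82 and 7.02 FPKM in TGFbeta1 and 9.64, 8.39 and 10.8 FPKM in control (log2 -0.37, adjusted p = 0.0620 by limma). Its groups did not overlap, as was also the case for NDUFA8, NDUFA9, NDUFB11 and NDUFV3 on the low side. NDUFB3 and NDUFC2, accessory subunits of the membrane arm, were the 2 members of the whole set with higher values and no overlap. NDUFB3 had 90.0, 92.9 and 90.7 FPKM in TGFbeta1 and 87.4, 78.8 and 80.3 FPKM in control, and its log2 change of 0.15 missed the threshold (adjusted p = 0.153). NDUFS7, another iron-sulfur subunit, had a change of -0.57, with TGFbeta1 replicate 3 far below the other libraries, at 43.5, 44.4 and 14.1 FPKM in TGFbeta1 against 38.6, 42.3 and 56.6 FPKM in control (adjusted p = 0.441). NDUFA4, which is named for complex I and is now regarded as a complex IV subunit, had a change of 0.08 (adjusted p = 0.669).

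Complex II, succinate dehydrogenase, links the respiratory chain to the tricarboxylic acid cycle and has no mitochondrially encoded subunit. Here 2 of 4 members fell (50%, against 11.9% of all genes), a share that rests on 4 genes. SDHB, the iron-sulfur subunit (chr1:17345217-17380665, minus strand), had 113.7, 105.5 and 98.1 FPKM in TGFbeta1 libraries, against 124.5, 143.7 and 135.2 FPKM in control libraries. SDHD, a membrane anchor (chr11:111957497-111990736, plus strand), had 47.6, 43.9 and 49.4 FPKM in TGFbeta1, against 61.0, 58.1 and 60.9 FPKM in control. In both genes the highest TGFbeta1 library lay below the lowest control library. The changes were -0.34 ± 0.09 (SE, adjusted p = 0.0415) for SDHB and -0.35 ± 0.07 (SE, adjusted p = 0.0206) for SDHD, from limma. Leaving out any 1 of the 6 libraries ended the call of SDHB (adjusted p 0.0548 to 0.113), and 4 of the 6 fits ended that of SDHD. Of the 3 other scalings, SDHB was called under 0 and SDHD under 2, with its call lost under an equal sum. SDHA, the flavoprotein that oxidises succinate, had 42.9, 51.7 and 45.8 FPKM in TGFbeta1 and 53.2, 58.4 and 43.3 FPKM in control, and SDHC, the other anchor, had 14.7, 14.1 and 21.5 FPKM in TGFbeta1 and 17.2, 17.5 and 16.3 FPKM in control. These 2 genes had overlapping groups and log2 changes of -0.13 and -0.04.

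In complex III, the cytochrome bc complex, 2 of 9 members fell (22.2%, against 11.9% of all genes). UQCRC1, a core protein (chr3:48636436-48647470, minus strand), had 82.4, 84.3 and 84.7 FPKM in TGFbeta1, against 100.5, 98.8 and 99.6 FPKM in control. UQCRFS1, the Rieske iron-sulfur protein (chr19:29696228-29704448, minus strand), had 28.3, 28.0 and 31.4 FPKM in TGFbeta1, against 35.9, 35.7 and 35.7 FPKM in control. The control libraries were nearly level for both genes, and the TGFbeta1 libraries were lower without overlap. The log2 changes were -0.25 ± 0.05 (SE, adjusted p = 0.0219) and -0.29 ± 0.07 (SE, adjusted p = 0.0385) in limma, and each call held in 1 of 6 fits without a library. Neither gene was called under any of the 3 other scalings. UQCRH, the hinge protein that contacts cytochrome c1, had 154.2, 230.6 and 219.6 FPKM in TGFbeta1 and 259.5, 264.0 and 340.7 FPKM in control. This gave a change of -0.52 that missed the threshold (adjusted p = 0.113). UQCRHL is a near-identical copy of UQCRH, so reads may be split between them and both values are uncertain. Its level was 5.61 to 5.86 FPKM in TGFbeta1 and 6.36 to 7.15 FPKM in control (log2 -0.21, adjusted p = 0.108). UQCRQ, a small subunit, was also lower without overlap (126.5 to 129.3 FPKM in TGFbeta1, 139.3 to 145.9 FPKM in control) and not called (adjusted p = 0.0890). UQCRB was the 1 member of the complex with a change above 0 (0.09, adjusted p = 0.451).

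Complex IV, cytochrome c oxidase, was the complex with no call among 12 tested members, where 11.9% of all genes were called lower. The smallest adjusted p was that of COX5A, an accessory subunit that sits beside the catalytic core, with 86.2, 82.9 and 88.0 FPKM in TGFbeta1 and 96.3, 98.8 and 97.6 FPKM in control. Its change of -0.19 ± 0.05 (SE) had an adjusted p of 0.0617 in limma, and its groups did not overlap. COX6B1 was the other member with lower values and no overlap, at 234.7, 225.5 and 225.9 FPKM in TGFbeta1 and 242.7, 238.3 and 249.4 FPKM in control (log2 -0.09, adjusted p = 0.252). COX4I1, the general form of subunit 4 that helps regulate the enzyme, had 335.0, 262.5 and 328.9 FPKM in TGFbeta1 and 298.3, 292.5 and 295.4 FPKM in control, with overlapping groups. COX6A1 and COX7A2, the general forms of their subunits, had changes of -0.09 and -0.20, and COX6B2, the testis form of COX6B, had 4.14, 1.7 and 1.98 FPKM in TGFbeta1 and 2.43, 2.17 and 2.02 FPKM in control. The other forms COX4I2, COX6A2, COX7A1, COX7B2 and COX8C were listed in neither set, so their levels are unknown.

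For several members of complex IV the libraries of 1 group disagreed. COX6C, a small accessory subunit, had 212.8, 306.7 and 121.2 FPKM in TGFbeta1 and 33.0, 313.3 and 305.2 FPKM in control, so that control replicate 1 stood 9.49-fold below the highest library of its group. COX7A2L, a supercomplex assembly factor related to COX7A, had 84.96, 18.1 and 38.3 FPKM in TGFbeta1 and 18.3, 19.2 and 16.4 FPKM in control. Its change of 1.08 ± 0.53 (SE) was the largest of all members and was not called (adjusted p = 0.209). Its principal transcript COX7A2L-201 alone had 84.1, 16.6 and 11.9 FPKM in TGFbeta1 and 17.5, 18.1 and 15.8 FPKM in control, and in TGFbeta1 replicate 3 another transcript, COX7A2L-001, carried 25.9 FPKM. COX8A had 1.04, 1.2 and 1.29 FPKM in TGFbeta1 and 1.32, 1.58 and 1.05 FPKM in control in the first set. The same transcript had, in the second set, 146.7, 153.3 and 149.0 FPKM in the libraries labelled TGFbeta1 and 134.6, 123.2 and 134.2 FPKM in control. Over all complexes, 11 of 80 members (13.75%) had libraries of 1 group more than 2-fold apart in the first set, and 20.4% of all tested genes did. None of the 11 called members was among them.

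**Figure D2:**
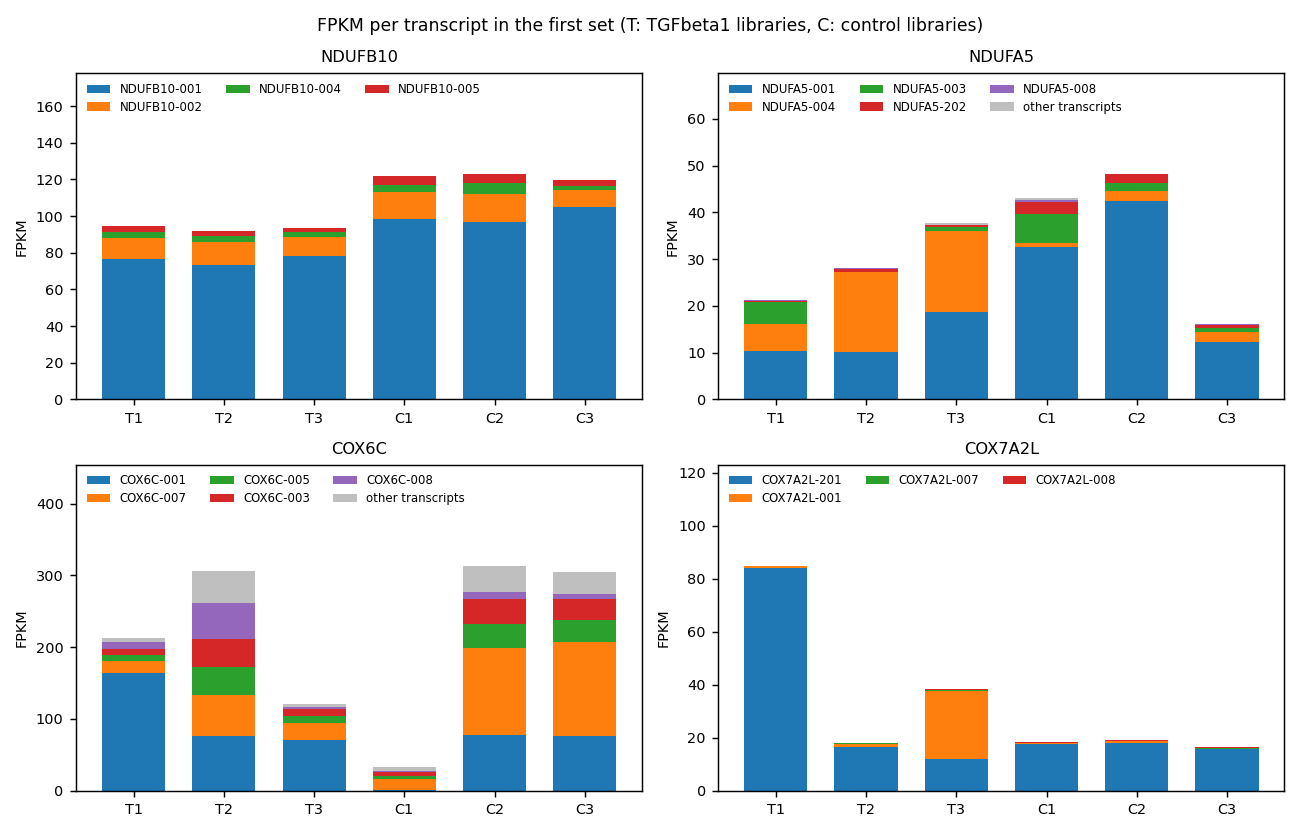
FPKM of each listed transcript, stacked per library of the first set, for NDUFB10, NDUFA5, COX6C and COX7A2L. The NDUFB10 columns are even within each group and lower in the TGFbeta1 libraries, while COX6C is low in control replicate 1 and COX7A2L is high in TGFbeta1 replicate 1.

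In complex V, ATP synthase, 1 of the 17 members tested under its symbol prefix fell (5.88%, against 11.9% of all genes). ATP5F1, subunit b of the stalk that holds the catalytic head in place (chr1:111991558-112005395, plus strand), had 43.8, 45.2 and 41.8 FPKM in TGFbeta1, against 55.9, 55.2 and 57.0 FPKM in control. The groups were well apart, and the change was -0.36 ± 0.06 (SE, adjusted p = 0.0117 by limma). It was called in all 6 fits without a library. ATP5O, another stalk protein, had 127.0, 121.5 and 142.2 FPKM in TGFbeta1 and 158.5, 152.3 and 172.0 FPKM in control (log2 -0.30, adjusted p = 0.0560). Of the catalytic head, ATP5B had 364.7, 365.0 and 351.6 FPKM in TGFbeta1 and 372.1, 464.5 and 487.2 FPKM in control (log2 -0.28, adjusted p = 0.132). ATP5D, of the central stalk, had 62.5, 68.5 and 73.7 FPKM in TGFbeta1 and 109.0, 76.5 and 128.5 FPKM in control. Its change of -0.58 was the lowest of all members and missed the threshold (adjusted p = 0.0957). ATP5A1, the alpha subunit, had 97.5, 76.9 and 132.2 FPKM in TGFbeta1 and 142.1, 70.8 and 99.6 FPKM in control, with no order between the groups. ATP5G1, ATP5G2 and ATP5G3, which encode the same mature ring subunit, had changes of -0.29, 0.11 and -0.17, and only ATP5G1 had groups without overlap. ATP5J2 had a change of 0.02, and ATP5J2-PTCD1, a read-through that shares its exons and whose level is therefore uncertain, one of -0.14. The median change of the complex was -0.02.

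**Figure D3:**
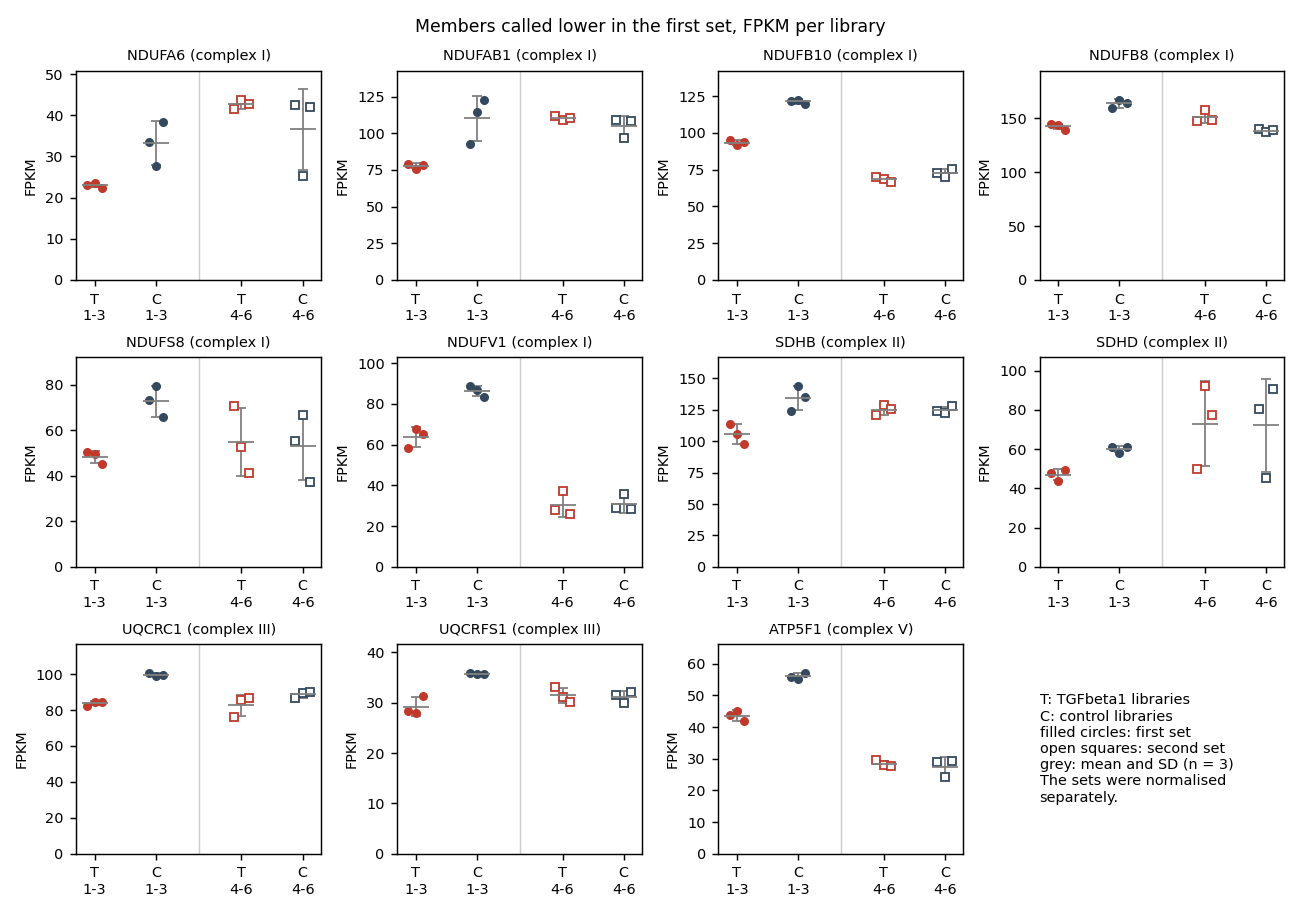
FPKM per library of the 11 members that fell in the first set, with group means and SD (grey bars, n = 3). Filled circles are the first set and open squares the second. In the first set each TGFbeta1 group lies below its control group, and in the second set the groups of all but NDUFAB1 and NDUFB8 overlap.

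Summed over members, FPKM was 7548 ± 82.8 in TGFbeta1 and 8158 ± 224.1 in control libraries of the first set (SD, n = 3 each), and the sums did not overlap. The sum fell by 7.48%. As a share of all listed FPKM it was 2.58% ± 0.0202 in TGFbeta1 and 2.62% ± 0.0793 in control (SD, n = 3 each), with overlapping groups, and the total of listed FPKM was also lower in the TGFbeta1 libraries. The summed FPKM of complex II was 216.3 ± 2.27 in TGFbeta1 and 263.1 ± 12.7 in control (SD, n = 3 each), and that of complex III was 740.7 ± 36.9 in TGFbeta1 and 875.8 ± 54.8 in control (SD, n = 3 each). For both of these complexes the share of all FPKM was also lower without overlap, at 0.0739% in TGFbeta1 and 0.0846% in control for complex II, and at 0.253% in TGFbeta1 and 0.281% in control for complex III. UQCRH, whose level is uncertain and which was not called, was the largest part of the complex III sum. Its mean was 201.4 FPKM in TGFbeta1 and 288.0 FPKM in control, so the fall of that sum and share rests largely on this gene. Sums without UQCRH are not given here. The sums of complexes I and V fell by 6.35% and 7.90% without overlap, while their shares overlapped. The sum of complex IV overlapped between the groups (1794 ± 125.2 FPKM in TGFbeta1 and 1858 ± 101.2 FPKM in control, SD, n = 3 each). With 3 libraries against 3, an exact permutation test of a single sum cannot go below a two-sided p of 0.10.

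**Figure D4:**
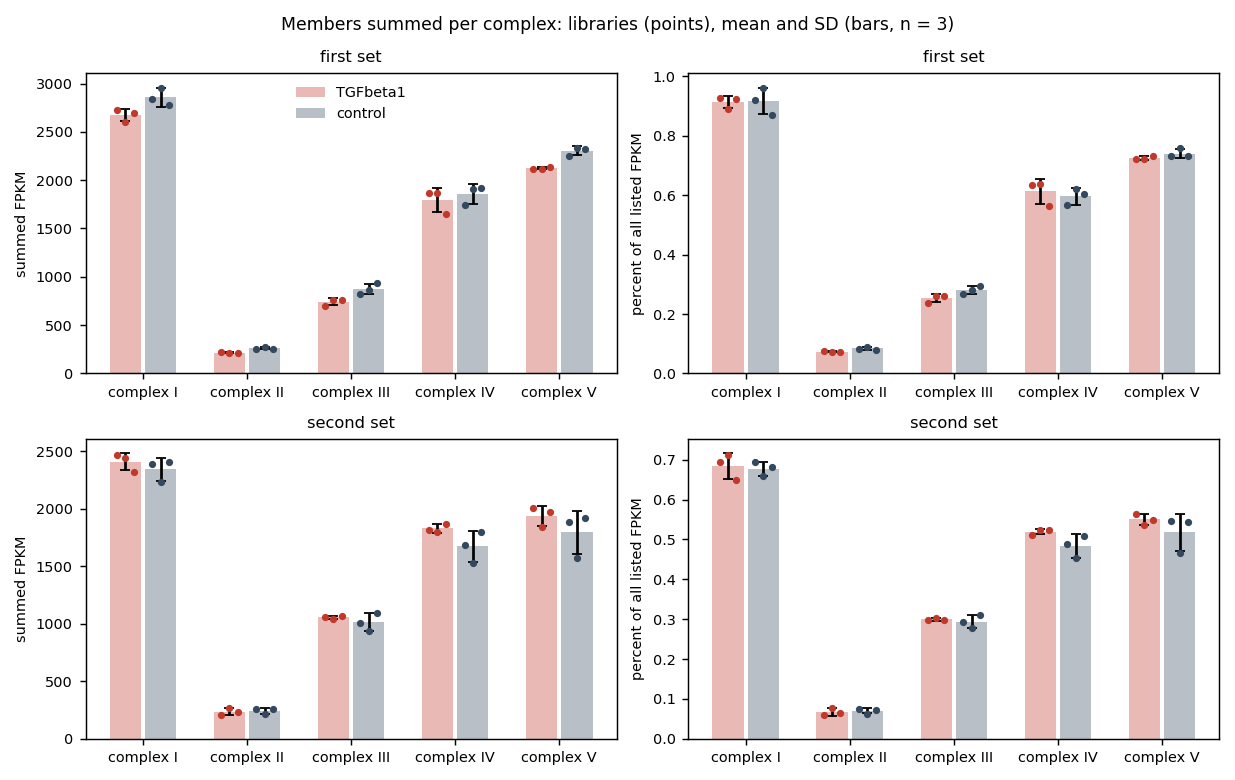
Members summed per complex, as FPKM (left) and as percent of all listed FPKM (right), in the first set (top) and the second (bottom). Points are libraries, bars are means and lines the SD (n = 3), with axes that start at 0. In the first set complexes II and III are lower in TGFbeta1 on both scales.

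In the second set no member was called among 81 tested, and 34 of 10579 genes were called in all, or 0.321% (18 higher, or 0.17%, and 16 lower). Without control replicate 4 none of all genes was called, and the other fits without a library gave 3 to 13 higher and 1 to 10 lower. Without adjustment 3 members had p under 0.05 in limma, against 11.2% of all genes, and all 3 were higher in the libraries labelled TGFbeta1. They were COX8A, COX6A1 and NDUFB8. NDUFB8 had 147.4, 157.5 and 148.3 FPKM in these libraries, against 139.6, 137.2 and 138.7 FPKM in control (log2 0.12, adjusted p = 0.417). Its groups did not overlap and lay in the opposite order to that of the first set. COX6A1 had 380.8, 378.9 and 390.2 FPKM in the libraries labelled TGFbeta1, against 335.0, 293.0 and 362.8 FPKM in control (log2 0.22, adjusted p = 0.418). The groups did not overlap in 8 members with higher and 3 with lower values, against 9.71% and 9.62% of all genes. The log2 change was above 0 in 58 of 81 members, with a median of 0.05 against 0.00 for all genes. The largest change of all members there was a fall, that of NDUFC1 (log2 -0.97, adjusted p = 0.528 by limma). It had 2.64, 2.48 and 0.606 FPKM in the libraries labelled TGFbeta1, against 7.85, 4.64 and 2.07 FPKM in control, with overlap. The largest rise was that of ATP5G2 (log2 0.50, adjusted p = 0.690 by limma), also with overlap. The authors' deposited table of transcript comparisons gave no member transcript of 249 a q-value under 0.05, and the lowest q in the authors' deposited table was 0.312 for a transcript of ATP5G1.

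For the 11 members that fell in the first set, the changes in the second set had 95% intervals of limma that included 0 in all but NDUFB8. NDUFAB1 had 111.5, 109.3 and 110.1 FPKM in the libraries labelled TGFbeta1, against 109.2, 96.5 and 108.4 FPKM in control. NDUFB10 had 70.1, 68.7 and 66.8 FPKM in the libraries labelled TGFbeta1, against 72.6, 69.8 and 75.6 FPKM in control. SDHB had 120.6, 128.8 and 126.0 FPKM in the libraries labelled TGFbeta1, against 124.2, 122.4 and 127.8 FPKM in control. NDUFAB1 was higher by a narrow gap without overlap, and the groups of NDUFB10 and SDHB overlapped. The interval of SDHB was narrow, from -0.11 to 0.12, and leaves out its first-set change of -0.34. NDUFS8 and SDHD varied widely within groups in the second set (41.1 to 70.6 and 49.7 to 92.0 FPKM in the libraries labelled TGFbeta1, against 37.3 to 66.8 and 45.5 to 90.6 FPKM in control). Their intervals, -0.62 to 0.72 for NDUFS8 and -0.78 to 0.84 for SDHD, contain the first-set values. The summed FPKM of members was 7474 ± 84.8 in the libraries labelled TGFbeta1 and 7071 ± 518.0 in control (SD, n = 3 each), with overlap. The share of complex IV was 0.519% ± 0.00688 in the libraries labelled TGFbeta1 and 0.484% ± 0.0291 in control (SD, n = 3 each), without overlap, while its sum overlapped.

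The difference between the sets was tested as the change in the second set minus that in the first. It was above the threshold for 4 of 80 members, all positive, or 5% against 7.6% of all 9990 genes tested. NDUFAB1 differed by 0.56 ± 0.14 (SE, adjusted p = 0.0222), NDUFB8 by 0.32 ± 0.07 (SE, adjusted p = 0.0138), NDUFB10 by 0.29 ± 0.08 (SE, adjusted p = 0.0288) and ATP5F1 by 0.40 ± 0.11 (SE, adjusted p = 0.0437), all in limma. For the other 7 members that fell in the first set, the difference did not pass, with SDHB nearest at 0.35 (adjusted p = 0.0526). NDUFA6 had the largest positive difference of all members, 0.75 ± 0.26 (SE, adjusted p = 0.0860). Without adjustment 16 members had p under 0.05, against 26.9% of all genes. The difference was below 0 for 18 members, against 44.3% of all genes, and its median was 0.16 for members and 0.06 for all genes. Under the median of ratios, an equal sum and quantile scaling the calls were 2, 1 and 1. NDUFAB1 was called under all 3 and NDUFB8 under 1 of them, while NDUFB10 and ATP5F1 were called under none. There were 2 positive calls without TGFbeta1 replicate 2, 4 or 5 or control replicate 2, and 1 without control replicate 5. Without TGFbeta1 replicate 2, COX7A2L was also called, with a negative difference (-1.84, adjusted p = 0.0399).

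Per transcript, 196 member transcripts were tested in the first set, and 1 fell and 1 rose, against 5.54% of all transcripts called. NDUFB10-001, which carried 82.0% of the level of its gene, had 76.7, 73.6 and 78.4 FPKM in TGFbeta1, against 98.2, 97.0 and 104.8 FPKM in control (log2 -0.39, adjusted p = 0.0476 by limma). NDUFA5-004 had 5.75, 16.96 and 17.5 FPKM in TGFbeta1, against 0.945, 2.06 and 2.09 FPKM in control (log2 2.31, adjusted p = 0.0495 by limma). The sum of all NDUFA5 transcripts, an accessory subunit of complex I, was not called, with 21.2, 28.0 and 37.6 FPKM in TGFbeta1 and 43.0, 48.1 and 16.2 FPKM in control. In the second set none of 212 member transcripts was called, against 0.221% of all transcripts.

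The mitochondrially encoded subunits, which are built into the same complexes, could be set beside the members in part. The first set lists 4 of 13, of which 2 were tested. MT-ND5, of complex I, had 900.7, 867.7 and 884.8 FPKM in TGFbeta1 and 886.5, 874.1 and 824.1 FPKM in control (log2 0.04, adjusted p = 0.620). MT-CYB, of complex III, had 94.8, 0 and 98.0 FPKM in TGFbeta1 and 2687, 2701 and 2381 FPKM in control. An FPKM of 0 for such a gene can be a failed assignment, and the change was not called (adjusted p = 0.0501 by limma). The TGFbeta1 libraries at 94.8 and 98.0 FPKM also lay far below every control library, and the cause was not tested. In the second set all 13 were tested and none was called, with a median change of 0.09. MT-CYB there had 2237, 2105 and 2141 FPKM in the libraries labelled TGFbeta1 and 2099, 1966 and 2142 FPKM in control.

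Genes around the complexes were examined through lists drawn from general knowledge. Of 47 tested assembly factors, which help build the complexes, 6 fell (12.8%) and 1 rose in the first set (limma, adjusted p under 0.05), with a median change of -0.17. Of all tested genes 11.9% were called lower and 9% higher, with a median of -0.05, so the share of assembly factors that fell is close to the background. BCS1L, which inserts the Rieske protein into complex III, had 15.2, 17.5 and 15.5 FPKM in TGFbeta1, against 27.4, 25.6 and 29.7 FPKM in control (log2 -0.75, adjusted p = 0.00411). ECSIT, needed for complex I assembly, had 18.7, 17.4 and 18.5 FPKM in TGFbeta1, against 28.5, 27.6 and 27.0 FPKM in control (log2 -0.58, adjusted p = 0.00307). Both genes were lower in every TGFbeta1 library than in any control library. The others that fell were UQCC3, ATPAF1, SCO2 and NDUFAF7, and PET100, a complex IV factor, rose by 0.34.

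Of 19 genes of the tricarboxylic acid cycle and pyruvate dehydrogenase, which supply NADH and succinate to the chain, 7 fell (36.8%, against 11.9% of all genes) and none rose, with a median of -0.29. FH, the fumarase that follows complex II in the cycle, had 66.1, 67.2 and 55.4 FPKM in TGFbeta1, against 93.5, 96.2 and 87.9 FPKM in control (log2 -0.55, adjusted p = 0.0124 by limma). SUCLG1, which makes the succinate that complex II uses, had 73.5, 68.4 and 69.0 FPKM in TGFbeta1, against 98.6, 99.0 and 93.9 FPKM in control (log2 -0.46, adjusted p = 0.00495). PC, which refills the cycle from pyruvate, was low in both groups, at 1.85 to 1.94 FPKM in TGFbeta1 and 3.15 to 3.87 FPKM in control (log2 -0.65, adjusted p = 0.00771). No group of these 3 overlapped with the other. Of 10 electron carriers and feeders outside the naming rule none was called, and the median was -0.27. CYC1, the cytochrome c1 of complex III, had 138.6, 142.7 and 143.1 FPKM in TGFbeta1 and 155.7, 157.3 and 153.8 FPKM in control (log2 -0.14, adjusted p = 0.105).

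Of 13 regulators of mitochondrial biogenesis, with a median of -0.19 and 9 changes below 0, none rose and 1 fell (7.69%, against 11.9% of all genes). It was PPARGC1B, a coactivator of mitochondrial genes, with 1.995, 2.15 and 1.88 FPKM in TGFbeta1 against 3.35, 2.89 and 3.38 FPKM in control (log2 -0.48, adjusted p = 0.0193 by limma). GABPA, the ETS factor that binds many respiratory promoters, had 10.2, 10.3 and 10.2 FPKM in TGFbeta1 and 9.46, 10.4 and 8.80 FPKM in control (log2 0.09, adjusted p = 0.469). POLRMT (log2 -0.38, adjusted p = 0.0713 by limma) and ESRRA (log2 -0.93, adjusted p = 0.0822 by limma) had changes below 0 and were not called. Of 78 mitochondrial ribosomal proteins, which translate the mitochondrially encoded subunits, 18 fell (23.1%, against 11.9% of all genes) and none rose, with a median of -0.30. MRPL14 had 10.8, 9.19 and 10.3 FPKM in TGFbeta1, against 49.8, 50.01 and 51.0 FPKM in control, a change of -2.21. Of 79 cytosolic ribosomal proteins 16 fell (20.3%, against 11.9% of all genes) and none rose, with a median of -0.19. The shares of lower calls in all lists, here and above, are on the deposited scale, where 1245 of all genes were called lower. The 3 other scalings gave 964, 855 and 972 lower calls over all genes, and list shares under them are not given here. In the second set none of these lists held a call, and their medians lay between -0.10 and 0.09.

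**Figure D5:**
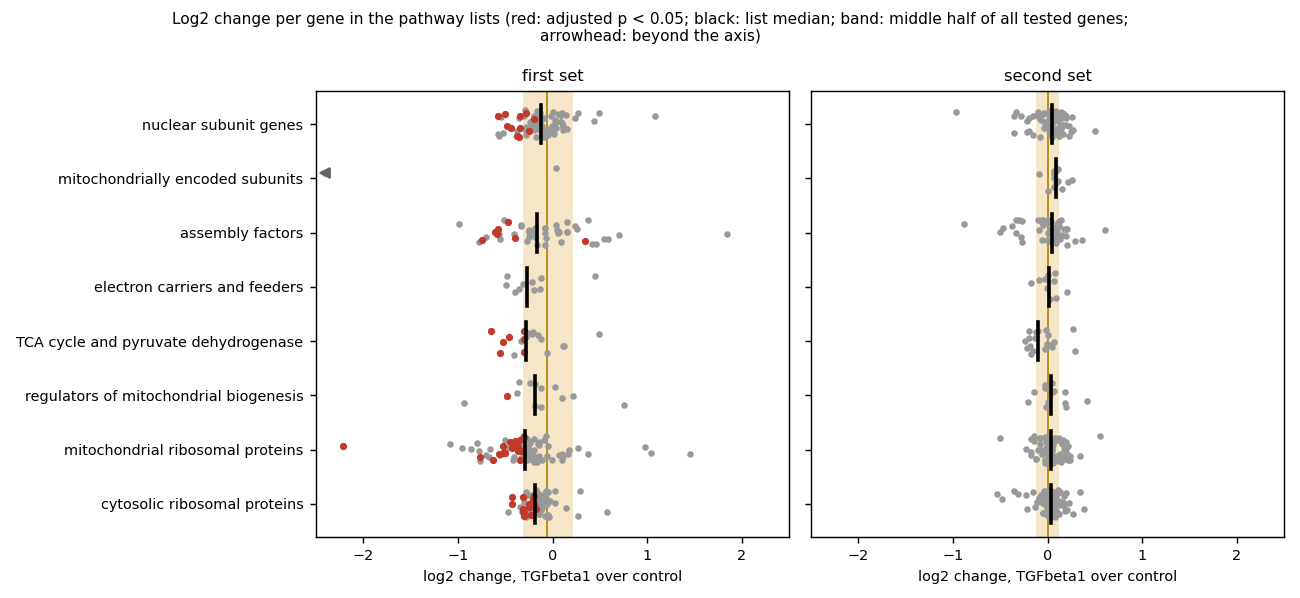
Log2 change, TGFbeta1 over control, of each tested gene in the members and the lists around them (points, red where the adjusted p was under 0.05). Black bars are list medians (for lists of more than 2 genes), the band spans the 25th to the 75th percentile of all tested genes, and the arrowhead is MT-CYB, which lies beyond the axis. In the first set the medians of members and lists lie left of that of all genes, and in the second set there are no red points.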

How the data were processed

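The authors deposited FPKM per protein-coding transcript in 2 tables. The tools named in the submitters' processing notes are HISAT2 2.0.4, StringTie 1.2.3, cutadapt and FastQC, with the build hg19. Annotation release, strandedness and filters were not stated there. The first table's headers name no unit, so FPKM was inferred there from its values and the named tools. The second table also holds, per the file headers, the authors' group means and changes as log2, a linear fold ratio, and p-values with q-values, used where a sentence names the authors' deposited table. The first table lists 44112 transcripts and the second 29204, of which 23335 are shared.

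Transcripts were summed per symbol. In the first set 162 symbols of other genes were renamed to those of the second through shared transcripts. ATP5SL, whose transcripts carry the name DMAC2 in the second set, kept its name and is counted under complex V by symbol only. Genes with a mean of at least 1 FPKM in a fit were tested with limma 3.58.1 (R 4.3.3) on log2(FPKM + 1), using a trended prior variance and the Benjamini-Hochberg adjustment over all tested genes, within each set and for the difference between the sets. The p-values are two-sided. The procedure was also run on simulated data with independent noise for each gene. Its outcome is not given here, and it cannot show that small changes would be found in the second set. Because FPKM is relative to the total of a library, abundant genes shift all others, and without counts the counting error is unknown. Levels are not compared between sets by any test. Assignment between similar transcripts can move FPKM among them.

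Members and lists were chosen with earlier results of these data known. Genes to name were drawn by rule, and not all of those drawn are described above. They were called members, the 2 members with the largest changes and the 2 with the highest control means per complex and set, members under the filter or in 1 set, paralogue pairs, the 2 genes with the smallest p per list and set, and TGFbeta response genes. The values of 1 member and of 1 response gene are not reported here, though both are in the counts over genes. Other genes are named for a stated feature, chosen after their values were seen. Alternatives were a pseudocount of 0.1, other filters and scalings, limma without trend or with robust variance, the replicate number as a block, shared transcripts only, single transcripts, and leaving out each library. Plots were drawn in matplotlib 3.10.9 from tables made in Python 3.11.15 (pandas 2.3.3, numpy 2.4.6).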

Additional observations from a re-analysis of the deposited data

Results flagged for a closer look

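The change between TGFbeta1 and control differed between the sets, by limma's test of the difference itself (second set minus first, log2 scale), for 4 members and 13 other named genes. Among members the difference was 0.56 for NDUFAB1, 0.40 for ATP5F1, 0.32 for NDUFB8 and 0.29 for NDUFB10. In the 12 fits that left out 1 library, the call held in 10 for NDUFAB1, 2 for ATP5F1, 12 for NDUFB8 and 5 for NDUFB10. Of the 3 other scalings it held under 3, 0, 1 and 0 in the same order, and with the replicate number as a block it was lost for each. Each of the 4 was lower with TGFbeta1 in the first set and not called in the second.

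Of the genes around the complexes, the difference was 0.89 for the assembly factor BCS1L, 0.43 for FH and 0.46 for PC of the tricarboxylic acid cycle, and 2.42, 0.64 and 0.53 for the mitochondrial ribosomal genes MRPL14, MRPL39 and MRPS17. It was 0.42, 0.68 and 0.34 for the cytosolic ribosomal genes RPL26, RPL4 and RPL8. MT-CYB differed by 6.996, where 1 TGFbeta1 library of the first set is listed at 0. The TGFbeta response genes differed in the other direction, by -1.42 for SMAD7, -3.70 for FN1 and -3.68 for ITGB6.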

How the results depend on the processing

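Among members, no call was gained or lost in the second set under any alternative run, and no member gene rose in the first set. In the first set the member calls numbered 11 as reported, 6 with the median of ratios, 4 with an equal sum, 5 with quantile normalisation and 4 to 7 without 1 library. They numbered 11 with a pseudocount of 0.1, no filter or robust variance, 12 with a minimum of 5 FPKM, and 9 without trend or over shared transcripts. The members' median change was -0.0609, -0.0372 and -0.0544 under the 3 scalings. The median of complex II was -0.15 with an equal sum, -0.16 with quantiles and -0.34 over shared transcripts, and that of complex III was -0.0623 with an equal sum. Over all genes the first set gave 625 higher calls with a minimum of 5 FPKM, and 615 to 935 higher and 722 to 1095 lower without 1 library. The second set gave 10 higher and 7 lower with an equal sum, 11 and 9 without trend, and 0 to 13 and 0 to 10 without 1 library. Its complex IV median ran from 0.042 (without control replicate 5) to 0.16. For the difference, member calls numbered 2 with the median of ratios, 1 with an equal sum or quantiles, 2 without trend and 1 to 4 higher and 0 to 1 lower without 1 library. The lower call was COX7A2L (-1.84, adjusted p = 0.0399) without TGFbeta1 replicate 2. All genes gave 489 higher with an equal sum, where the members' median was 0.0402, and 365 lower with a minimum of 5 FPKM. The cause of these shifts was not tested.

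NDUFA6 was -0.50 as a gene and 0.0183 (adjusted p = 0.987) for its most abundant transcript, the 1 change of direction among called members. NDUFB10, NDUFS8 and ATP5F1 kept their calls in all 6 fits without a library, NDUFV1 in 5, SDHD in 2, NDUFA6, NDUFAB1, UQCRC1 and UQCRFS1 in 1, and SDHB and NDUFB8 in 0. ATP5B, ATP5D, ATP5O, NDUFA9 and NDUFS1 were each called lower under 1 alternative.

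With the replicate number as a block, 2 members were lower in the first set (NDUFB10 and NDUFS8), with 552 higher and 659 lower over all genes. The block left 0 higher and 0 lower calls in the second set and 0 member calls for the difference. The deviations of equally numbered libraries correlated by 0.007 to 0.046. Such low values show no strong effect shared by equal numbers, but cannot decide whether the numbers pair the libraries. In the second set each library correlated best with its own number, which is a hint from the data alone. In the first set TGFbeta1 replicates 1 and 2 did so as well (0.017 each), and replicate 3 did not (0.007, against 0.009 with control replicate 1).

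No counts were used, so what depth allows is unknown, and a change smaller than the spread between 3 libraries cannot be seen.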
